A study of Mus musculus with 6 samples.

Results

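The transcripts of splicing factors and RNA helicases were examined as targets of BAZ2A, the large subunit of a chromatin remodeling complex that binds RNA through its TAM domain. Members were taken by gene symbol, as the protein-coding genes of the GENCODE M21 annotation whose names start with Srsf, Tra2, Hnrnp, Ptbp, Snrnp, Snrp, Sf3, Prpf, U2af, Rbm, Celf, Mbnl, Rbfox, Ddx or Dhx. This gave 192 of 21951 protein-coding genes, of which 49 had at least 1 BAZ2A peak, with 59 peaks in all. The RNA bound by BAZ2A was measured by iCLIP, in which RNA is crosslinked by UV to bound protein, recovered with it by immunoprecipitation and sequenced. The cells were mouse E14 embryonic stem cells (ESCs) grown in N2B27 medium with LIF and 2i, whose endogenous BAZ2A carries Flag and HA tags, and nuclear lysates were precipitated with anti-FLAG beads. There were 3 crosslinked libraries, and 3 background libraries were made from the same cells without UV. The peaks of these libraries form a single list of 3127 peaks for the whole series, so no value per library, no depth and no replicate error can be given, and the Wilson 95% intervals printed with each share cover counting error only. Of 8 genes taken as markers of pluripotent ESCs, 7 had a peak in the list (87.5%, 52.9 to 97.8), beside 9.69% of all protein-coding genes. They were Pou5f1, Sox2, Nanog, Klf4, Esrrb, Tcf7l1 and Zfp42, and Dppa4 had none. The 8 genes were chosen with earlier results of these data known, so this share does not measure an enrichment. A peak in such a gene shows only that its RNA is in the list, so the markers name no cell type.

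Splicing removes introns from the primary transcript through the spliceosome, whose core is built of small nuclear ribonucleoproteins (snRNPs). SR proteins and heterogeneous nuclear ribonucleoproteins (hnRNPs) bind exons and introns of the transcript and promote or repress the use of nearby splice sites. Many genes of both groups limit their own output through alternative exons or retained introns, and the resulting transcripts are kept in the nucleus or removed by nonsense-mediated decay (NMD), a pathway that degrades mRNAs with an early stop codon. RNA helicases of the DEAD-box (Ddx) and DEAH-box (Dhx) families use ATP to remodel RNA structures and RNA-protein complexes.

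Peaks whose midpoints lay outside the exons of the protein-coding transcripts, within exons known from NMD or retained-intron transcripts, are shown first, because the results below turn on them. There were 10 such peaks, and the sequence of the Hnrnpa1 peak, which lies in a 3'UTR, is not printed. All sequences are the RNA sense strand written as DNA, from GRCm38 (mm10). Capitals mark the annotated TGA stop codon in Tra2b, the GT that opens an intron and the AG that closes an intron.
Tra2b, chr16:22259177-22259212, minus strand: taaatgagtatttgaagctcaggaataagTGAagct
Srsf5, chr12:80948825-80948865, plus strand: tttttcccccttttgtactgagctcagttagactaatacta
Srsf5, chr12:80949024-80949103, plus strand: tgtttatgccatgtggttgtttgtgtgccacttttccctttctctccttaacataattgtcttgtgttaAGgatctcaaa
Srsf2, chr11:116851176-116851204, minus strand: tttttttttttggtcttggttatttggcc
Srsf11, chr3:158025252-158025337, minus strand: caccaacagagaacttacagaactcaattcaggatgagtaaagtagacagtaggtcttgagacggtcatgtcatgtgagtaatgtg
Tra2a, chr6:49263506-49263641, minus strand: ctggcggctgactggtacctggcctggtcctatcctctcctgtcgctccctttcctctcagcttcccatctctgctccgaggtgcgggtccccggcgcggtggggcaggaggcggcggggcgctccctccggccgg
Rbm3, chrX:8144428-8144573, minus strand: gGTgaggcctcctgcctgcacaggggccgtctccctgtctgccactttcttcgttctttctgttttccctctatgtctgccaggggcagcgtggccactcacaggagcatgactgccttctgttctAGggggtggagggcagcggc
Snrnp70, chr7:45382861-45383014, minus strand: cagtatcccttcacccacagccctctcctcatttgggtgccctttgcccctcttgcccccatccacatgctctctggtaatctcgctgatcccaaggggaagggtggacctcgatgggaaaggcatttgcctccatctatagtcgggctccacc
Snrnp48, chr13:38214893-38214935, plus strand: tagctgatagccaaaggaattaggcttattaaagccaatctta

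The peak with the highest score among all members lay in the coding sequence (CDS) of Srsf2, and a peak of Ptbp1 held the pyrimidine 6-mer TCTTCT at 2 places. Capitals mark the AG before the coding exon in Srsf2 and the TCTTCT copies in Ptbp1.
Srsf2, chr11:116852102-116852391, minus strand: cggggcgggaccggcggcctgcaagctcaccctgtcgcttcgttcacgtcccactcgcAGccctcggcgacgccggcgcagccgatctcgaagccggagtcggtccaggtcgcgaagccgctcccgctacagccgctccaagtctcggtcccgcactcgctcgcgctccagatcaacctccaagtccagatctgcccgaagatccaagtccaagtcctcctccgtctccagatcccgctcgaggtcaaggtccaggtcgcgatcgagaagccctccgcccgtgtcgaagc
Ptbp1, chr10:79858735-79858821, plus strand: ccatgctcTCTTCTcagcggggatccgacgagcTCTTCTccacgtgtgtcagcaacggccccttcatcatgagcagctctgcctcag

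To determine how often these transcripts appear among the BAZ2A targets, the share of genes with a peak was compared with that of all other protein-coding genes. A peak was listed for 49 of 192 members (25.5%, Wilson 95% interval 19.9 to 32.1) and for 2079 of 21759 other protein-coding genes (9.55%, 9.17 to 9.95), and over all protein-coding genes the share was 9.69%. At least 2 peaks were listed for 9 members (4.69%, 2.49 to 8.67) and for 470 other genes (2.16%, 1.98 to 2.36), beside 2.18% of all protein-coding genes. Of the 49 members with a peak, 40 had 1 peak (81.6%, 68.6 to 90.0), as did 77.4% of other genes with a peak (75.6 to 79.2). With peaks limited to the upper 10% by score, 3 members (1.56%, 0.533 to 4.49) and 1.08% of other genes (0.955 to 1.23) had a peak, and the intervals overlapped. The number of peaks in a transcript can move with its level. The authors report that BAZ2A iCLIP read density rose in proportion to transcript level. They also report higher expression for genes with iCLIP sites than for genes that lack them. The other protein-coding genes used here were not limited to those expressed in ESCs. Transcript levels were not analysed here, so how far the difference in shares goes with expression was not tested. In these bulk libraries, more cells with a transcript and more transcript per cell cannot be told apart.

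The share differed between families. The hnRNP and Ptbp genes had the highest value, with 14 of 23 genes (60.9%, 40.8 to 77.8), followed by the SR and Tra2 genes with 5 of 13 (38.5%, 17.7 to 64.5). The Rbm genes, which encode RNA recognition motif proteins of varied function, followed with 13 of 47 (27.7%, 16.9 to 41.8), and the Celf, Mbnl and Rbfox regulators of tissue-specific splicing had 3 of 12 (25%, 8.89 to 53.2). The core spliceosome genes (Snrnp, Snrp, Sf3, Prpf and U2af) had 8 of 44 (18.2%, 9.51 to 32.0). Values were lowest for the helicases, with 5 of 37 Ddx genes (13.5%, 5.91 to 28.0) and 1 of 16 Dhx genes (6.25%, 1.11 to 28.3). Together, 6 of 53 helicase genes had a peak (11.3%, 5.29 to 22.6), an interval that holds the value of other genes. The remaining families, grouped by gene name and not by function, had 43 of 139 genes with a peak (30.9%, 23.9 to 39.0). Neighboring families in this order had overlapping intervals.

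**Figure D1:**
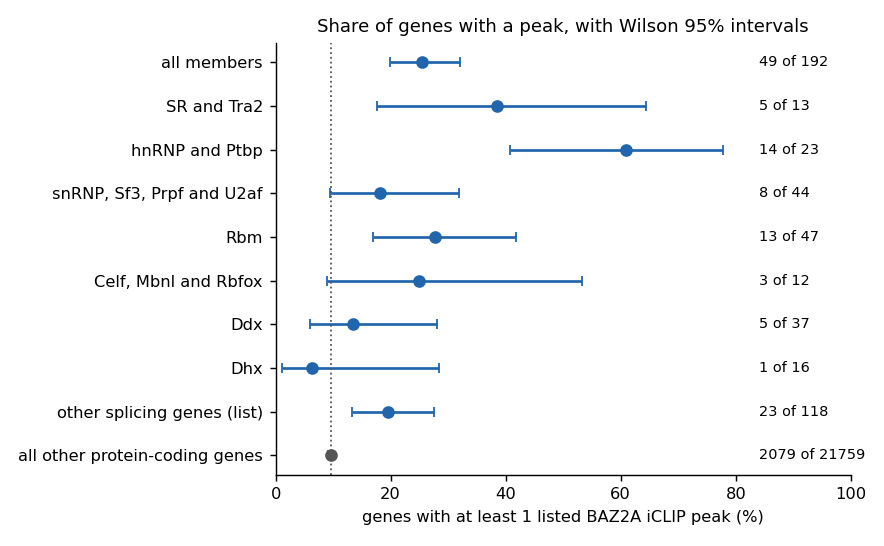
Share of genes with at least 1 listed BAZ2A peak (x axis, percent) for all 192 members, for the 7 families, for a list of 118 other splicing genes and for all other protein-coding genes. Points are shares, bars are Wilson 95% intervals and the dotted line is the 9.55% of other genes. The hnRNP and Ptbp genes reached 60.9%, while the intervals of the Ddx and Dhx genes included the line.

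A further list of 118 genes with a role in splicing that the name rule does not take held 23 genes with a peak (19.5%, 13.4 to 27.6). Over all protein-coding genes the share was 9.69%. Srrm2, which encodes a scaffold protein of nuclear speckles, had 5 peaks with a highest score of 7.88. The highest score on this list was that of a peak in Sfpq, a paraspeckle protein gene, at 18.3.

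Length was examined next, since longer genes have more room for peaks. The median length of merged exons was 5173.5 nt for members and 3487 nt for other genes, and the median gene span was 19793 nt and 17377 nt. Members had the higher share in each length class. With exons over 4 kb, 35 of 123 members (28.5%, 21.2 to 37.0) and 15.8% of other genes (15.1 to 16.6) had a peak, and with exons of 2 to 4 kb, 12 of 53 members (22.6%, 13.5 to 35.5) and 6.55% (5.99 to 7.17). Only 16 members had exons under 2 kb, and 2 of them had a peak (12.5%, 3.5 to 36.0) against 2.72% of other genes (2.33 to 3.18). By gene span, the share of members was 25.8% under 20 kb (18.1 to 35.3), 23.9% from 20 to 60 kb (15.3 to 35.3) and 28.6% over 60 kb (15.3 to 47.1). The share of other genes rose over the same classes from 4.70% to 10.9% and 21.1%, so that the intervals of members and other genes overlapped for genes over 60 kb. Members with a peak had a median span of 19290 nt, and other genes with a peak 47719 nt. Members also have more annotated transcripts, with a median of 6 against 3. Among genes with 7 or more transcripts, 27 of 82 members (32.9%, 23.7 to 43.7) and 19.2% of other genes (18.1 to 20.3) had a peak. With 3 to 6 transcripts the shares were 20.7% (13.4 to 30.7) and 9.29% (8.69 to 9.93), and with 1 or 2 transcripts 17.9% (7.88 to 35.6) and 3.80% (3.40 to 4.23).

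The score that the peak caller gave each peak was then compared within the list. Its scale is not stated. The 59 member peaks had a median score of 4.88 (quartiles 3.38 and 7.11, range 1.89 to 15.3), and the 2858 peaks of other genes that could be classed by position had 4.19 (quartiles 2.97 and 6.65). In the upper 50% of all peaks by score lay 37 member peaks (62.7%, 50.0 to 73.9) and 48.7% of the other peaks (46.8 to 50.5). In the upper 10% lay 3 member peaks (5.08%, 1.74 to 13.9) and 9.24% of the others (8.23 to 10.4), and these 3 belonged to Srsf2, Rbm10 and Hnrnpa2b1. Among exonic peaks the medians were 4.6 for members and 4.69 for other genes, and among intronic peaks 5.03 and 3.75. Member peaks had a median length of 64 nt, against 58 nt.

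**Figure D2:**
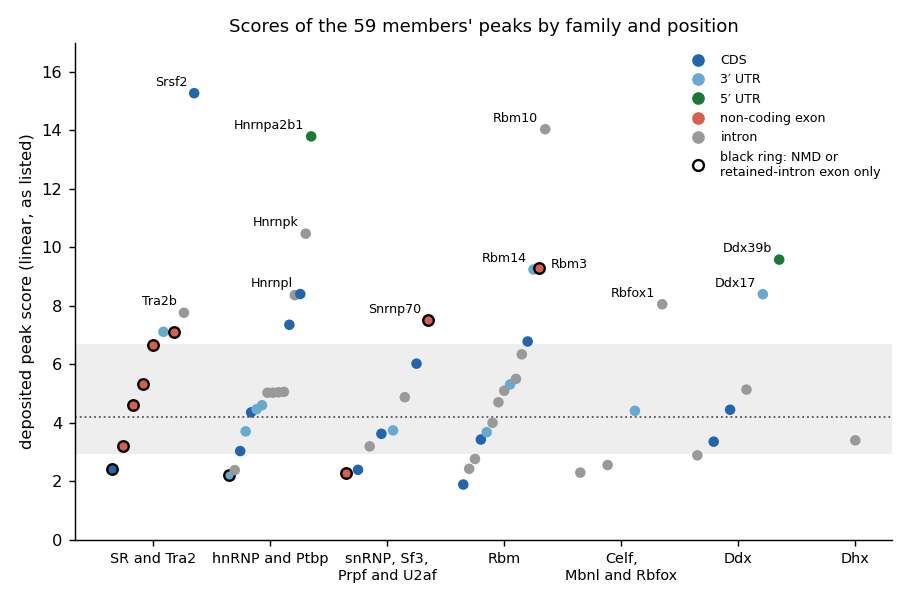
Deposited score (y axis, linear, unit as listed) of each of the 59 member peaks by family, with color for the position of the midpoint and a black ring for peaks in NMD or retained-intron exons only. The dotted line and gray band are the median (4.19) and quartiles (2.97 and 6.65) of peaks in other protein-coding genes. Srsf2 has the highest score at 15.3, and 6 of the 9 SR and Tra2 peaks carry a ring.

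Among the SR and Tra2 genes, whose proteins carry arginine and serine repeats and promote exon use, Srsf2, Srsf5, Srsf11, Tra2a and Tra2b had peaks. Srsf1, Srsf3, Srsf4, Srsf6, Srsf7, Srsf9, Srsf10 and Srsf12 had none. Srsf2 (ENSMUSG00000034120) was the only member with 3 peaks. They had scores of 15.3 in the CDS, 7.11 in an exon of a retained-intron transcript and 7.11 in the 3'UTR. The CDS peak, printed above, was 290 nt long and ranked 222 in the list. It opened 60 nt before an exon, in the end of an intron, and ran 230 nt into that exon, where 76 whole codons of its reading frame lay inside it. Of these codons, 61 encode arginine or serine (80.3%), against 45.7% of the 221 codons of the whole reading frame. All 3 intervals were also listed on the opposite strand under Mettl23, with scores of 15.6, 7.14 and 7.21, so that the list does not settle which of the overlapping transcripts was bound.

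Tra2b, which encodes an activator of exon inclusion, had a peak of score 7.76 in its first intron and the 36 nt peak of score 2.42 shown first above. The midpoint of the latter lay in an exon of the NMD transcripts Tra2b-206, Tra2b-207 and Tra2b-209, and in no exon of a protein-coding transcript. All 3 NMD transcripts end their reading frame at the same TGA, which begins 29 nt into the peak. Srsf5 had peaks with scores of 5.34 and 3.19 in 1 intron of 1229 nt, which is retained in transcripts of the gene. The former ended 9 nt inside the following exon and so covered the AG at the 3' splice site. The Srsf11 peak scored 4.61 and the Tra2a peak 6.66. The Tra2a peak lay in the first intron of the gene, 265 nt from its 5' splice site.

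**Figure D3:**
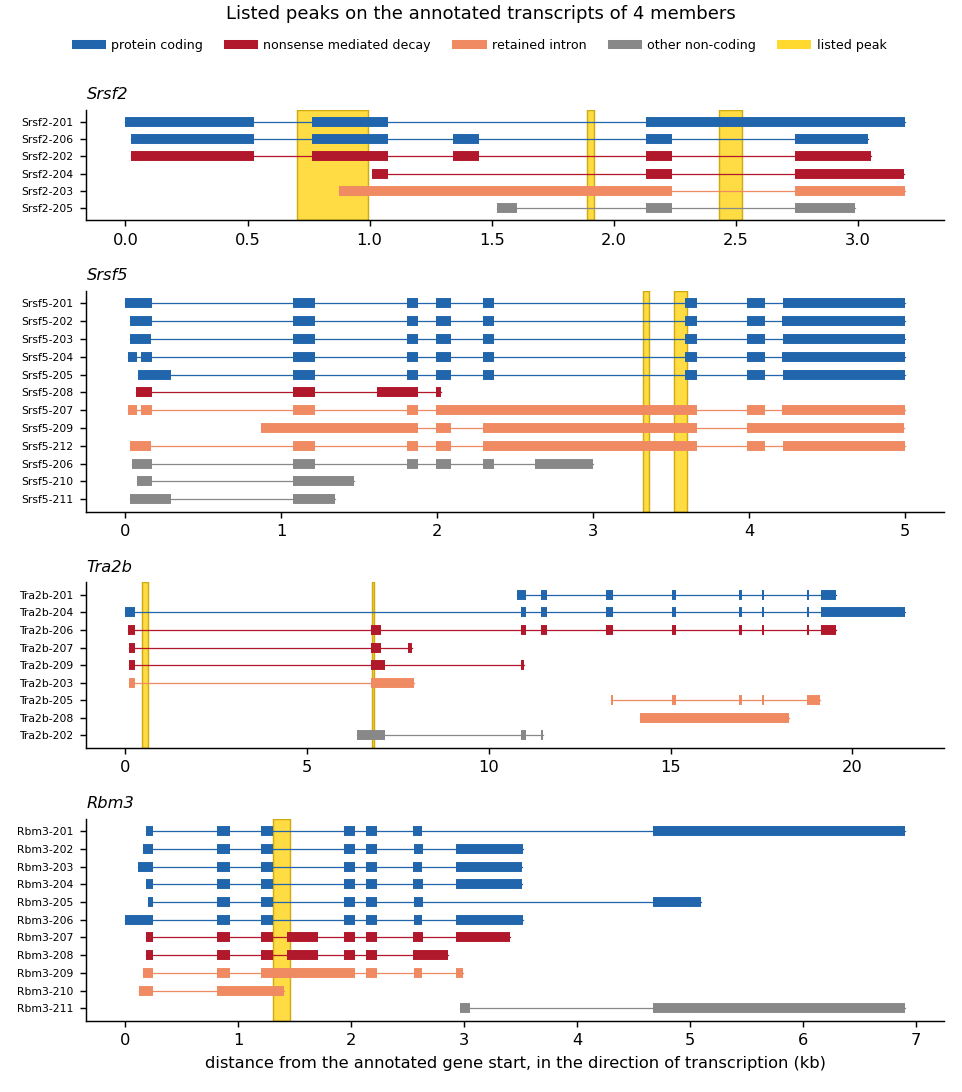
Annotated transcripts of Srsf2, Srsf5, Tra2b and Rbm3, with exons as blocks colored by transcript type and listed peaks as yellow bands; the x axis is the distance from the gene start in kb. The 3 Srsf2 peaks lie in an exon, in a retained intron and in the 3'UTR, both Srsf5 peaks lie toward the end of 1 retained intron, the narrow Tra2b peak lies in an exon of NMD transcripts and the Rbm3 peak runs from a coding exon to an NMD exon.

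The hnRNP and Ptbp genes with a peak were Hnrnpa0, Hnrnpa1, Hnrnpa2b1, Hnrnpa3, Hnrnpab, Hnrnpc, Hnrnpf, Hnrnph1, Hnrnpk, Hnrnpl, Hnrnpm, Hnrnpul1, Ptbp1 and Ptbp2. Hnrnpa2b1, which encodes a nuclear RNA-binding protein of the A/B type, had a peak of score 13.8 in its 5'UTR. Hnrnpa1, of the same type, had a 34 nt peak of score 2.22 in the 3'UTR of an NMD transcript. The Hnrnpk peak scored 10.5 and had its midpoint in an intron and its mode, the position of strongest signal given in the list, in the 5'UTR. Hnrnpl, whose protein binds CA-rich RNA, had a CDS peak of score 8.4, and Hnrnpf, whose protein binds G-rich RNA, an intronic peak of score 8.36. Hnrnpa0 is encoded by 1 exon and had peaks of score 7.35 in its CDS and 4.6 in its 3'UTR. Ptbp1, which encodes a repressor that binds pyrimidine-rich RNA, had peaks of score 4.36 in its CDS and 4.46 in its 3'UTR. The CDS peak opened 17 nt before an exon, and 1 of its TCTTCT copies lay in the intron end before the AG.

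Among the core spliceosome genes, Snrnp70, which encodes the 70 kDa protein of the U1 snRNP, had the highest score with 7.51, in an exon of retained-intron transcripts. The other members of this group with a peak were Prpf8, Prpf19, Sf3b3, Sf3b4, Snrnp48, Snrpa and U2af2, with scores from 2.28 to 6.02. In the Rbm group, Rbm10, which encodes a regulator of exon skipping, had intronic peaks with scores of 14.0 and 4.00. Rbm14, a paraspeckle protein gene, had peaks of 9.24 in its 3'UTR and 6.78 in its CDS, and the list gives both also under Gm21992, whose annotation overlaps Rbm14 and Rbm4. The peak of Rbm3, which encodes a cold-inducible RNA-binding protein, scored 9.29. It opened on the last base of an exon used by coding transcripts, covered the 5' splice site and ended 18 nt inside an exon of the NMD transcripts Rbm3-207 and Rbm3-208, whose 3' splice site it covered as well. The other Rbm genes with a peak were Rbm4, Rbm20, Rbm22, Rbm26, Rbm27, Rbm38, Rbm47, Rbms2, Rbmx2 and Rbmxl2.

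Among the helicases, Ddx39b, which encodes an export and splicing helicase, had a 5'UTR peak of score 9.58. Ddx17 had a 3'UTR peak of 8.4 and an intronic peak of 5.14, and Ddx6, Ddx42 and Ddx50 had 1 peak each. The peak of Dhx40 scored 3.40 and was intronic. It shares 19 nt with the intronic peak of Hnrnpc, gagacagggtttctctgtg, in a stretch that the genome marks as repeat. In the Celf, Mbnl and Rbfox group, Rbfox2 had intronic peaks of 2.55 and 2.30 and Celf4 a peak in its 3'UTR. The intronic Rbfox1 peak, gatctgaacaataat, scored 8.05 and was the only member peak of 18 nt or less (1.69%, 0.30 to 9.0), against 9.20% of other peaks (8.20 to 10.3). On its antisense strand it holds ATTG followed after 3 nt by AGAT, as does the reverse transcription primer of the background libraries. With either strand counted, the pattern was found in 3.22% of other peaks (2.63 to 3.93). Rbfox1 is chiefly a neuronal and muscle gene, and its RNA level was not analysed here.

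To compare where the peaks lay, each took the class of its midpoint. CDS held 14 member peaks (23.7%, 14.7 to 36.0) and 24.7% of the other peaks, and 3'UTRs held 11 (18.6%, 10.7 to 30.4) and 17%. 5'UTRs held 2 (3.39%, 0.935 to 11.5) and 7.42%. Introns held 24 (40.7%, 29.1 to 53.4) and 48.4%, beside 61.7% and 80.5% of the positions of the same genes. A position in an exon of a retained-intron transcript counts as exon here, so sequence of a retained intron is outside the intron class. The intron shares therefore depend on the annotation, which differs between members and other genes. Non-coding exons, which belong to transcripts without a CDS, held 8 member peaks (13.6%, 7.03 to 24.5) and 72 of 2858 other peaks (2.52%, 2.01 to 3.16). Such exons made up 11.1% of gene positions for members and 4.50% for other genes.

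All 8 of the members' peaks in non-coding exons lay in exons of retained-intron transcripts. In an exon of an NMD or retained-intron transcript, and in no exon of a protein-coding transcript of the gene, lay 10 member peaks (16.9%, 9.48 to 28.5), against 70 of 2858 other peaks (2.45%, 1.94 to 3.08) and 2.74% of the peaks of all protein-coding genes. They belonged to 9 genes: Srsf2, Srsf5, Srsf11, Tra2a, Tra2b, Rbm3, Hnrnpa1, Snrnp48 and Snrnp70. The annotation itself differs in this respect. NMD or retained-intron transcripts are annotated for 72.9% of members (66.2 to 78.7) and 47.2% of other genes (46.6 to 47.9), and among genes with a peak for 73.5% (59.7 to 83.8) and 70% (68.0 to 72.0). Weighted by peaks, such exons covered 11.1% of the positions of member genes with a peak, below the 16.9% of peaks, and 4.13% of the positions of other genes, above the 2.45% of peaks. Among exonic peaks, 28.6% of those of members (16.3 to 45.1) and 4.74% of those of other genes (3.77 to 5.95) lay there, beside 32.4% and 18.1% of exon positions.

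This feature was concentrated in the SR and Tra2 genes. They held 6 of the 10 peaks, which were 6 of their own 9 peaks (66.7%, 35.4 to 87.9), beside 30.9% of gene positions. Each of the 5 SR and Tra2 genes with a peak had at least 1 there. Among their exonic peaks, 6 of 8 lay in NMD or retained-intron exons only (interval 40.9 to 92.9), beside 50.8% of exon positions. That interval holds the share of exon positions. Both intervals count peaks as independent, although the 9 peaks came from 5 genes and both Srsf5 peaks lay in 1 intron. Without this family, 4 of 50 member peaks remained (8.0%, 3.15 to 18.8), beside 7.59% of gene positions. The lower limit of 3.15 was only just above the 1.94 to 3.08 of other genes. Most of these peaks came from retained introns. With NMD transcripts alone, 2 member peaks were left (3.39%, 0.935 to 11.5), those of Tra2b and Hnrnpa1, against 0.385% of other peaks. Both had low scores (2.42 and 2.22), below the lower quartile of the peaks of other genes (2.97). An intron that is still to be spliced has the same sequence as a retained intron, and the list cannot tell them apart. Among the other splicing genes, which the name rule does not take, 1 of 34 peaks lay in NMD or retained-intron exons only (2.94%, 0.521 to 14.9). Such exons covered 6.78% of the positions of those genes.

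**Figure D4:**
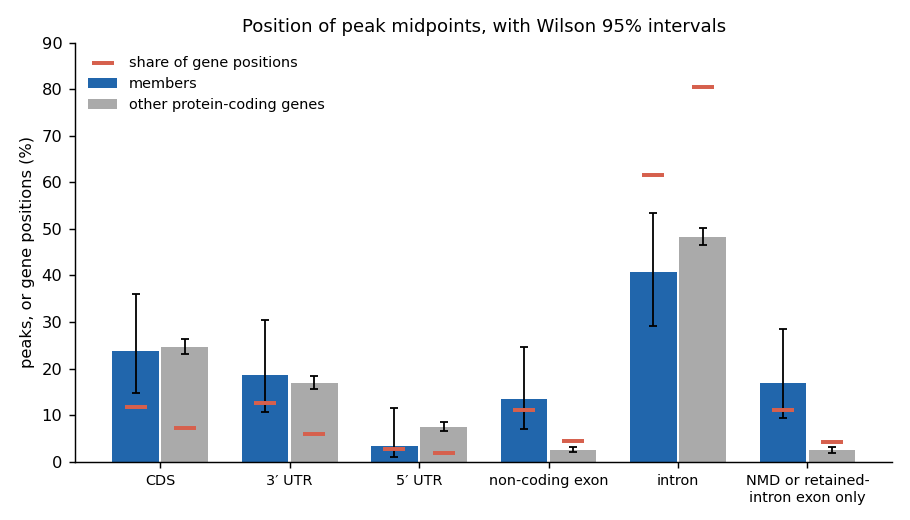
Share of peak midpoints (y axis, percent) by position for the 59 peaks of members and the 2858 peaks of other protein-coding genes, with Wilson 95% intervals as black bars and the share of gene positions of the same class as red lines; the last pair overlaps with the other classes. Members exceed other genes in non-coding exons (13.6% and 2.52%) and in NMD or retained-intron exons (16.9% and 2.45%), and so do their gene positions.

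Next, the distance to annotated splice sites was examined. Within 50 nt of an internal exon boundary lay 7 of 32 exonic member peaks (21.9%, 11 to 38.8) and 427 of 1452 exonic peaks of other genes (29.4%, 27.1 to 31.8), beside 26.3% and 28.9% of the exon positions. The 7 peaks were those of Rbm22 at 11 nt, Prpf8 at 22 nt, Ptbp1 at 27 nt, Srsf5 at 32 nt, Sf3b3 at 37 nt, Sf3b4 at 45 nt and Ddx42 at 48 nt. The Srsf5 peak counts as exonic through retained-intron transcripts. In coding transcripts of the gene its midpoint lies in an intron, 32 nt before the 3' splice site. Of the 24 member peaks outside all annotated exons, 0 had a midpoint within 50 nt, which allows a share of up to 12.5%. Of the intronic peaks of other genes, classed in the same way, 51 of 1382 did (3.69%, 2.82 to 4.82). An annotated boundary lay inside 8 of 59 member peaks (13.6%, 7.03 to 24.5) and inside 9.62% of the other peaks (8.59 to 10.8). A preference of member peaks for splice sites was therefore not detectable with this number of peaks.

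The median distance of intronic peaks to the nearest exon was 651 nt for members (quartiles 359.5 and 1375) and 1886.5 nt for other genes (523.75 and 7760). The introns themselves were shorter, as the stretch between exons that held the peak had a median of 3881 nt for members and 11105 nt for other genes. Within 1 kb of the gene start lay 4 intronic member peaks (16.7%, 6.68 to 35.9), those of Rbmx2, Tra2b, Hnrnpa3 and U2af2, and 4.78% of other intronic peaks (3.77 to 6.03), beside 3.08% and 1.77% of intron positions.

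**Figure D5:**
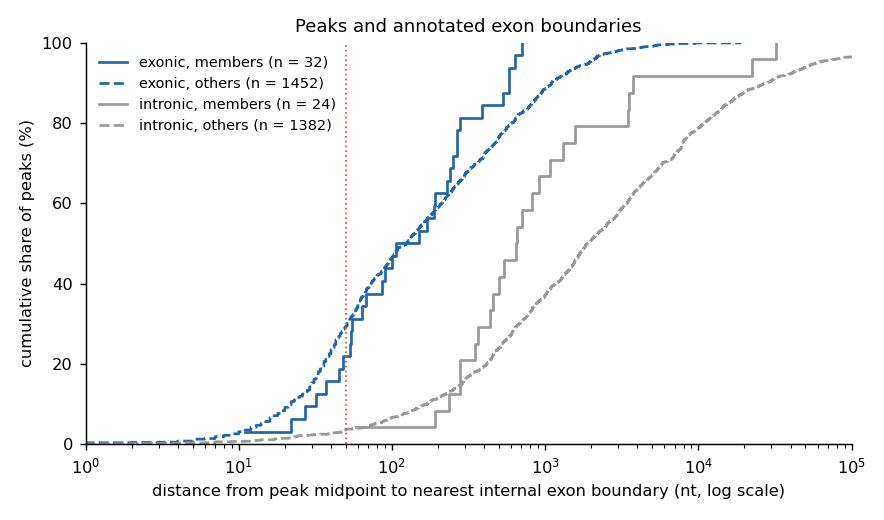
Cumulative share of peaks (y axis, percent) by the distance of the midpoint from the nearest internal exon boundary (x axis, nt, log scale), for exonic and intronic peaks of members (solid) and other protein-coding genes (dashed); the dotted line is at 50 nt. The exonic curves lie close together at the median (128.5 and 124 nt), and the intronic curve of members reaches its median at 651 nt, before that of other genes at 1886.5 nt.

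The sequences under the peaks were searched for 6-mers that splicing factors are known to bind, in windows that reached 50 nt to either side of the midpoint on the sense strand. Motifs were grouped where they overlap each other as shifts of the same repeat. The pyrimidine repeat TCTTCT, or its 1-base shift TTCTTC, was present in 9 of 59 member windows (15.3%, 8.24 to 26.5) and in 9.24% of other windows (8.23 to 10.4). On the antisense strand these values were 3.39% (0.935 to 11.5) and 5.67% (4.88 to 6.58). The repeat CCTCCT, or the shifted form TCCTCC, or the remaining shifted form CTCCTC, was present in 15.3% of member windows (8.24 to 26.5) and 17.2% of the others, and on the antisense strand in 6.78% and 10.2%. The purine repeat GGAGGA, or its shifted form GAGGAG, was present in 5.08% (1.74 to 13.9) and 8.05% (antisense 8.47% and 13.7%), and the repeat GAAGAA, or its shifted form AAGAAG, in 3.39% (0.935 to 11.5) and 5.14% (antisense 10.2% and 7.91%). GGTAAG, the letters of a 5' splice site, or the overlapping form AGGTAA, was present in 1.69% (0.30 to 9.0) and 3.39%; on the antisense strand, 0 of 59 member windows held them, which allows a share of up to 5.08%, against 3.18%. In each group the interval of members held the value of other genes. Peaks of members had a mean GC content of 53.1% ± 14.6 (SD, n = 59 peaks) and those of other genes 54.0% ± 13.9 (SD, n = 2858 peaks).

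Some features of the list limit the assignment of peaks to these genes. Of the 59 member peaks, 7 lay over an annotated gene on the opposite strand, and each of these 7 intervals was also listed under that gene with a similar score. Overlap with a peak on the opposite strand was thus found for 11.9% of member peaks (5.87 to 22.5), against 158 of 2858 other peaks (5.53%, 4.75 to 6.43). They were the 3 peaks of Srsf2, the CDS peak of Rbm14, the 3'UTR peak of Ptbp1 and the peaks of Rbm38 and Hnrnpab. Among the 52 peaks with no such gene, 0 were listed on the opposite strand. Repeats made up at least 50% of the peak in 10 member peaks (16.9%, 9.48 to 28.5) and in 22.0% of other peaks (20.5 to 23.5). No member peak overlapped an annotated small RNA (0 of 59, which allows up to 5.08%).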

How the data were processed

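BAZ2A iCLIP was performed on 6 libraries, 3 crosslinked and 3 background. The authors trimmed reads with Flexbar, mapped them to mm10 with STAR 2.6, removed duplicates with UMI-tools 0.5.1 and called peaks with omniCLIP, using Ensembl release 100. According to the methods, the samples without UV gave no visible amplification product on a gel. Each crosslinked library was therefore pooled by equal volume with its background library before sequencing. The deposited list holds peak coordinates and, as deposited by the authors, a score of unstated scale, which was compared within the list only.

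Genes were named by the identifier in the list, and 2286 of 2288 were found in GENCODE M21 (GRCm38). Positions were classed by peak midpoint with coding sequence taking precedence over 3'UTR, then 5'UTR, then exons without coding sequence, then introns, and 1 peak of a protein-coding gene had no class. Shares carry Wilson 95% intervals, and a share of 0 is given the limit that 3 counts allow. These intervals cover counting error only, and they treat genes and peaks as independent, which peaks of the same gene are not. Medians printed with an interval carry the 95% interval from order statistics, which treats genes and peaks as independent too. No test was run, because the list pools the libraries. The share of positions was averaged over the genes of the peaks compared. Repeats are the lower-case bases of the genome. Scripts were tested on simulated data.

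By rule, the text gives values for the 12 members with the most peaks, the 12 with the highest scores and the leading member of each family. Other values were chosen after they were seen. Members, lists and alternatives were chosen with earlier results of these data known. The tools were pysam 0.24.0, scipy 1.17.1, matplotlib 3.10.9, pandas 2.3.3 and numpy 2.4.6 in Python 3.11.15.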

Additional observations from a re-analysis of the deposited data

How the results depend on the processing

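The list gives no values per library, so no replicate could be left out. No paired analysis was possible because the columns of the list carry no replicate numbers. Of 85 alternatives over 24 results, 72 differed from the reported value by less than its counting interval. The interval of the share of members with a peak lay above that of other genes under 8 of 9 alternatives. The share fell to 16.1% against 4.94% when peaks were limited to the upper 50% by score and to 1.56% against 1.08% with the upper 10%, as fewer peaks were used, and with the upper 10% the intervals overlapped (0.533 to 4.49 and 0.955 to 1.23). Exonic peaks near a splice site were 6.25% of member peaks within 25 nt (other genes 11.9%) and 46.9% within 100 nt (other genes 46.3%). The share in NMD or retained-intron exons was 3.39% with NMD transcripts alone and, in alternatives chosen after seeing the data, 28.6% of exonic peaks and 8.0% without the SR and Tra2 genes, while it was 17.3% without peaks listed on both strands. For single 6-mers, the peak itself in place of the window gave 0% for GAAGAA, 0% for the shifted AAGAAG and 0% for the splice site letters AGGTAA, and the antisense strand gave 1.69% for TCTTCT, 3.39% for the shifted TTCTTC and 0% for the splice site letters AGGTAA. The strata by number of transcripts were also chosen after seeing the data.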
